A study of Homo sapiens with 10 samples.

Results

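Acetylation of histone H3 at lysine 27 (H3K27ac), a mark of active promoters and enhancers, was described at the genes of the IL6 family receptors (IL6R, IL6ST, LIFR and OSMR), of the kinases JAK1 and JAK2, of the transcription factor STAT3 and of the inhibitors SOCS2 and SOCS3. The regions were all those that the deposited annotation assigned to 1 of these 9 genes by nearest transcription start site (TSS), which gave 77 of 67387 annotated regions, each 502 bp wide. Of the 77 regions, 21 lay within 1 kb of a TSS and are called promoter regions here, 6 lay at 1 to 3 kb, and 50 lay further away and are called distal. Promoter regions made up 27.3%, against 36.1% of all annotated regions. OSMR had 15 regions, LIFR and JAK1 13 each, IL6R 12, SOCS3 10, STAT3 6, SOCS2 5, IL6ST 2 and JAK2 1.

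All libraries came from the established line H1975, human lung adenocarcinoma cells whose EGFR is mutant, and each of 3 groups had 3 libraries that the labels call biological triplicates. DMSO cells had 21 days in medium free of drug and then 3 days with DMSO. The osi_DTP cells were osimertinib drug-tolerant persisters (DTPs), the cells left after 24 days in osimertinib, which blocks mutant EGFR, at 500 nM. The osi_DTP_AZD5153_combo cells (the combo group) had 500 nM osimertinib for 21 days and then AZD5153, a bivalent inhibitor of BET bromodomain proteins, at 150 nM for 3 days, and the labels do not say whether osimertinib was kept on during those 3 days. No group had AZD5153 without prior osimertinib. The comparisons of osi_DTP and of combo with DMSO use the same 3 DMSO libraries, so they are not independent of each other.

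Total counts over all regions ranged from 6263443 to 10463351 in the 9 H3K27ac libraries, and 1 pooled input library had 1870885. Input counts given below are raw, so they are not on the scale of the H3K27ac counts. The epithelial genes KRT8, KRT18, CDH1, EPCAM and KRT7 all had acetylated regions, while the haematopoietic genes PTPRC and CD3E had 0 annotated regions. Combo replicate 3 had Spearman coefficients across regions of 0.354 and 0.430 with the other combo libraries, which had 0.890 with each other. In combo replicate 3, 66.7% of the annotated counts lay in promoter regions and in osi_DTP replicate 2 59.8%, against 40.3% to 45.9% in the other 7 libraries. At the 9 genes, combo replicate 3 was the highest of its group at 13 of 21 promoter regions and the lowest at 30 of 50 distal regions, and osi_DTP replicate 2 was the highest of its group at 16 of 21 promoter regions. Counts of changed regions are therefore given with and without combo replicate 3. At some regions the log2 fold change is also given from a fit that leaves out these libraries. Why these libraries differed from the others was not tested.

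IL6 family cytokines bind a receptor of their own (IL6R, LIFR, OSMR) that pairs with the shared signalling chain IL6ST. The paired receptors bring JAK kinases together, which phosphorylate STAT3, and STAT3 then enters the nucleus and binds DNA at target genes. SOCS3 is one of these targets and closes a feedback loop by blocking JAK activity at the receptor, while SOCS2 is better known for restraining growth hormone signalling. In lung cancer cells with mutant EGFR this route is a known input to STAT3 beside EGFR itself.

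The promoter sequences that bear on the findings are shown first: the start of JAK1 at which acetylation rose, the other main start of the same gene as its contrast, and the promoters of IL6R, SOCS3 and LIFR, at or beside which regions were counted. They are RefSeq sequences of GRCh38.p14, 5′ to 3′ in the direction of the gene, from 250 bases before to 50 bases after the start. The windows are chr1:65067697-65067996 (minus strand) and chr1:64966500-64966799 (minus strand) for JAK1, chr1:154405093-154405392 (plus strand) for IL6R, chr17:78359618-78359917 (minus strand) for SOCS3 and chr5:38595356-38595655 (minus strand) for LIFR. Capitals mark the STAT motif TTCNNNGAA and the AP-1 motif TGANTCA, searched on both strands.
JAK1 upstream start: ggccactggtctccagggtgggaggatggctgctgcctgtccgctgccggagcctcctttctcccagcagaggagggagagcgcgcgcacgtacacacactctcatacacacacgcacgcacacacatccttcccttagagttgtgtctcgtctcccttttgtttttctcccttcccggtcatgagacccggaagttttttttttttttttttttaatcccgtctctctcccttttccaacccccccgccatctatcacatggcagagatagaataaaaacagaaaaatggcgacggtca
JAK1 inner start: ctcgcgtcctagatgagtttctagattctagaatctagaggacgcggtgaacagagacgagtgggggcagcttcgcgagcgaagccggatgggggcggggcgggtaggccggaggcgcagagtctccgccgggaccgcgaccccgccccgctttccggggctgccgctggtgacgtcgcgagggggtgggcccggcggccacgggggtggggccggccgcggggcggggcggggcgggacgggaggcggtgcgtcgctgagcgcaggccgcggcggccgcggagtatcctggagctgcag
IL6R: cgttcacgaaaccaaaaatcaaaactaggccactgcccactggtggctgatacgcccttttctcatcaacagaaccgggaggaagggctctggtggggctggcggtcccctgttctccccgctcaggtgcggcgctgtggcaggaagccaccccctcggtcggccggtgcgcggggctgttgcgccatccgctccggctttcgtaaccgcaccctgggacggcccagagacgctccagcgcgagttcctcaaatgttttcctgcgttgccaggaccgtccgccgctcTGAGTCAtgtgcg
SOCS3: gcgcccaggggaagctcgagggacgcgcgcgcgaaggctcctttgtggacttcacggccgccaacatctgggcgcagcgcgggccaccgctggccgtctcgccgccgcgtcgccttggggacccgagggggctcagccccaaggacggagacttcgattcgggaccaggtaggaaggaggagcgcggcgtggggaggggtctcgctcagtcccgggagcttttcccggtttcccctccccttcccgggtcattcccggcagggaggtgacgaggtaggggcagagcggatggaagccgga
LIFR: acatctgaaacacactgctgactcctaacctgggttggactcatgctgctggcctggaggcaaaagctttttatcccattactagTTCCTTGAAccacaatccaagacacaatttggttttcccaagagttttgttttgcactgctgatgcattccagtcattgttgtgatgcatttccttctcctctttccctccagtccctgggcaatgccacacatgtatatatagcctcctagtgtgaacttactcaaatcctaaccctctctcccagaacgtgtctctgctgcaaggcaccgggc
In all, 16 RefSeq windows were found for 8 of the genes, SOCS2 having none in the table used. The STAT motif was present in 2 of the 16, both at LIFR starts, and in 7.66% of all 35116 promoter windows, while the AP-1 motif was present in 1 window of IL6R and in the window of OSMR, and in 7.71% of all. The upstream JAK1 window was less rich in G and C (52.7%) than the inner JAK1 window (74.7%) and the SOCS3 window (70.7%), and it held 15 CpG against 43 and 34. A match is a description of the letters, and the absence of one says only that these letters are not in the window.

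Osimertinib persisters were first compared with DMSO cells. At 4 of the 77 regions H3K27ac changed (edgeR quasi-likelihood test, adjusted p under 0.05 over 157919 regions): it rose at the upstream JAK1 promoter and at a region inside STAT3, and it fell at a region in LIFR and at a region downstream of SOCS3. That is 5.19% of the regions of the 9 genes, against 10.7% of all regions tested (5.58% higher and 5.13% lower) and 14.2% of annotated regions. The median log2 fold change over the 77 regions was 0.35, against 0.18 over all annotated regions, with values from −2.42 to 2.21. All osi_DTP libraries lay above or all below all DMSO libraries at 26 regions (33.8%; 16 above and 10 below), against 39.1% of all regions tested. Without combo replicate 3, which is in neither group but enters the shared estimate of spread, the filter and the scaling, 10 regions were higher and 5 lower, while 26.8% of all regions passed. A block for the replicate number lost the JAK1 call (edgeR adjusted p = 0.059) and gained 1 at SOCS2 chr12:93622173-93622674 (0.046). Without DMSO replicate 2, DMSO replicate 3, osi_DTP replicate 2 or osi_DTP replicate 3, none of the 77 regions passed in the edgeR test. Calls over all regions fell too, to 668 higher and 482 lower of 164143 without DMSO replicate 2. They were 1324 and 1836 of 163040 without DMSO replicate 3. Without osi_DTP replicate 2 they were 3326 and 1599 of 164346, and without osi_DTP replicate 3 they were 3010 and 1471 of 162949. With all libraries 13 of the 77 regions had an unadjusted p under 0.05, against 40906 of all 157919. DESeq2 called 7 of the 77, and 12497 higher and 15406 lower of all 157919.

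The combo group was compared with DMSO in the same way. H3K27ac changed at 10 of the 77 regions, 7 higher and 3 lower: 3 of the higher ones lay around the upstream JAK1 start, 2 in IL6R, 1 in OSMR and 1 in the LIFR locus, and the 3 lower ones were 2 regions in LIFR and the region downstream of SOCS3. The share was 13%, against 18.1% of all regions tested (9.05% higher and 9.01% lower) and 21.8% of annotated regions. The median log2 fold change was 0.50, against 0.24 over all annotated regions, with values from −3.37 to 3.15. Combo libraries lay apart from DMSO libraries at 28 regions (36.4%; 15 above and 13 below), against 33.4% of all regions tested. Leaving out combo replicate 3 gave 14 higher and 4 lower regions, while 35.7% of all regions passed. Leaving out DMSO replicate 2 gave 3, DMSO replicate 3 gave 4 and DMSO replicate 1 gave 6. Over all regions these fits, in the same order, called 3943 higher and 4526 lower of 164143, 4172 and 5843 of 163040, and 7632 and 9615 of 163069.

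**Figure D1:**
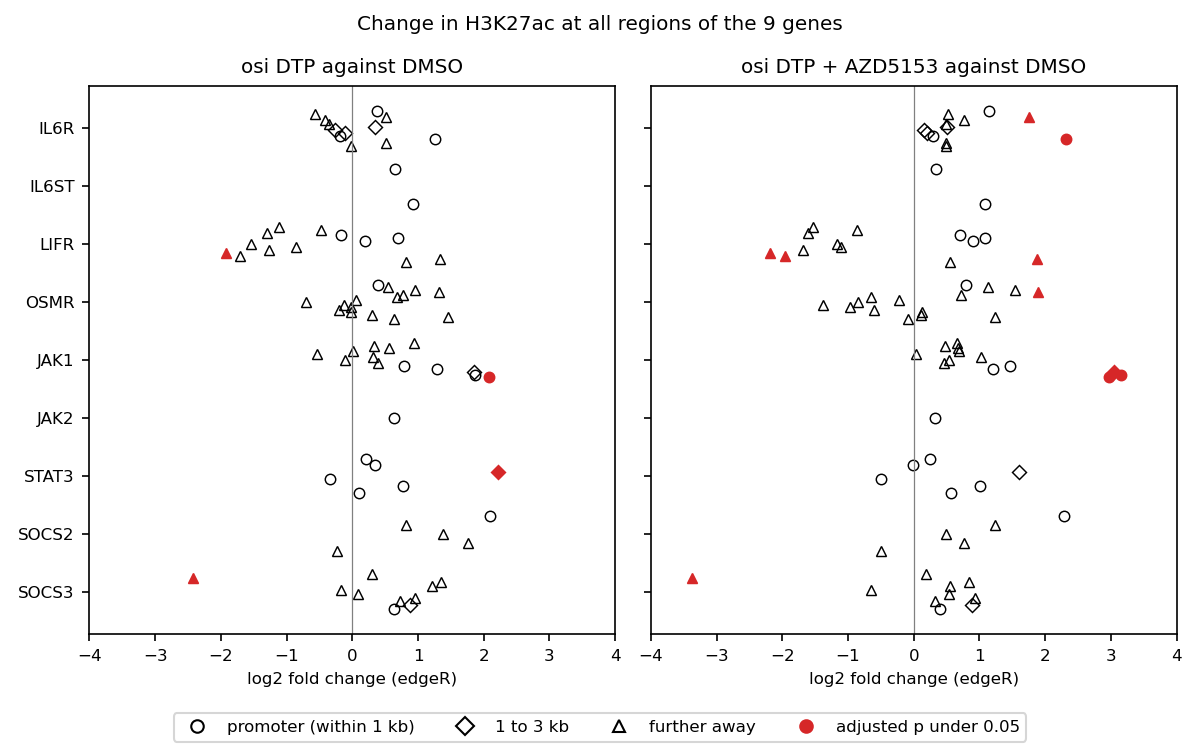
Log2 fold change (x axis, edgeR) of every one of the 77 regions, by gene (y axis), for osi_DTP against DMSO on the left and the combo group against DMSO on the right; circles are promoter regions, diamonds regions at 1 to 3 kb and triangles distal regions, and filled red symbols have an adjusted p under 0.05. The 3 filled JAK1 symbols on the right lie between 2.98 and 3.15, and the distal LIFR regions are spread to both sides of 0.

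IL6R, the ligand-binding chain for IL6, gained H3K27ac inside the gene in the combo group, whereas the region at its 5′ end did not pass the test. Values are CPM (the counts of a region relative to all reads in regions of its library) after TMM scaling of the libraries, and all regions have the same width, so levels can be compared between genes. The promoter region with the most reads (chr1:154405577-154406078, next to the window shown) had CPM of 17.3, 24.6 and 20.8 in DMSO, 20.8, 47.5 and 13 in osi_DTP and 35.7, 21.8 and 81.6 in combo. The groups overlapped, and the log2 fold changes against DMSO were 0.37 ± 0.59 (SE; edgeR adjusted p = 0.763) in osi_DTP and 1.15 ± 0.60 (0.199) in combo, the latter 0.45 without combo replicate 3. A region at a short internal transcript (chr1:154453221-154453722), which is in the promoter class although it lies 48.1 kb into the gene, had 1.45, 1.86 and 1.31 CPM in DMSO, 4.88, 3.06 and 3.12 in osi_DTP and 11.9, 5.24 and 5.99 in combo. Its counts were 16, 18 and 13 in DMSO, 51, 22 and 31 in osi_DTP and 119, 45 and 31 in combo, and 15 in the input of lower total count. A peak was called there in 0 of 3 DMSO libraries, 2 of 3 osi_DTP libraries and 3 of 3 combo libraries. The 3 groups did not overlap there, with DMSO lowest and combo highest. The difference from DMSO passed the test in combo (log2 fold change 2.32 ± 0.58, edgeR adjusted p = 0.011) and not in osi_DTP (1.26 ± 0.57, edgeR adjusted p = 0.169). This call held without combo replicate 3 (edgeR adjusted p = 0.000707) and was lost without any 1 of the DMSO libraries or without combo replicate 1 (0.0521 to 0.0794).

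An intronic region of IL6R (chr1:154419726-154420227, intron 1), which is named because it was called, had 10.9, 12.3 and 13.2 CPM in DMSO, 21.2, 18.8 and 11.8 in osi_DTP and 39.1, 28.6 and 54.7 in combo. All combo libraries were above all others, and the rise over DMSO passed the test (log2 fold change 1.75 ± 0.51, edgeR adjusted p = 0.026; 0.013 without combo replicate 3, and 0.0692 to 0.114 without 1 of the DMSO libraries or combo replicate 1). The other region given by rule, the non-promoter region with the most reads (chr1:154432791-154433292), had a mean of 25.5 ± 4.12 CPM (SD, n = 3) in DMSO, 23.7 ± 12.6 in osi_DTP and 29.3 ± 11.7 in combo, so its groups overlapped. Of the 12 IL6R regions, 12 had a log2 fold change above 0 in combo against DMSO and 5 in osi_DTP against DMSO. Without combo replicate 3 the combo value at chr1:154432791-154433292 was −0.18, so not all 12 stayed above 0.

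IL6ST, the signalling chain that all receptors of the family share, had 2 regions, both at its 5′ end, and neither passed in any comparison. At chr5:55994565-55995066, CPM was 16.4, 22.7 and 14.6 in DMSO, 24.7, 60.1 and 17.2 in osi_DTP and 24.0, 24.5 and 65.7 in combo. Osi_DTP replicate 2 and combo replicate 3 stood far above the other libraries of their groups, and the combo libraries were all above DMSO. The log2 fold changes were 0.92 ± 0.59 in osi_DTP (edgeR adjusted p = 0.351) and 1.09 ± 0.59 in combo (edgeR adjusted p = 0.217). Without osi_DTP replicate 2 the first was 0.28, and without combo replicate 3 the other was 0.43.

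LIFR, the receptor chain for LIF, had lower H3K27ac at most of its distal regions in both drug groups, of which 1 passed the test in osi_DTP and 2 in combo, and none of its 3 promoter regions passed. The 10 regions outside the promoter class summed to 70.0, 103 and 84.3 CPM in DMSO, 47.9, 33.8 and 43.5 in osi_DTP and 50.2, 43.9 and 23.2 in combo. All 6 drug-exposed libraries were below all DMSO libraries, with mean sums of 85.9 ± 16.7 CPM (SD, n = 3) in DMSO, 41.7 ± 7.20 in osi_DTP and 39.1 ± 14.1 in combo, a log2 ratio of −1.04 for osi_DTP and −1.14 for combo. Over the 13 regions, osi_DTP libraries lay below all DMSO libraries at 7 and above at 2, and combo libraries below at 8 and above at 2. Over all regions tested, the groups lay apart in either direction at 39.1% and 33.4%.

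The strongest loss in LIFR was at chr5:38601286-38601787, which is in exon 3 of a transcript of LIFR-AS1, an antisense RNA gene that overlaps LIFR, and lies 6.87 kb into LIFR from its RefSeq start. CPM was 11.5, 15.6 and 12.6 in DMSO, 3.92, 2.50 and 3.93 in osi_DTP and 3.61, 3.26 and 1.74 in combo. All drug-exposed libraries were below all DMSO libraries, and a peak was called there in 3 of 3 DMSO libraries and in 0 of the other 6. H3K27ac fell by 1.93 ± 0.54 on the log2 scale in osi_DTP (edgeR adjusted p = 0.030) and by 2.18 ± 0.55 in combo (edgeR adjusted p = 0.012). Without combo replicate 3 the edgeR adjusted p was 0.00143 and 0.00344; the osi_DTP call was lost without any 1 of the DMSO or osi_DTP libraries (0.0658 to 0.153), and the combo call without DMSO replicate 2 (0.0649).

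The neighbouring region chr5:38602061-38602562, named because it was called, had 5.89, 7.85 and 4.22 CPM in DMSO, 2.58, 1.11 and 1.71 in osi_DTP and 2.50, 1.51 and 0.387 in combo. It fell by 1.96 ± 0.65 in combo (edgeR adjusted p = 0.043; 0.028 without combo replicate 3), a call lost without any 1 of 7 other libraries (0.0536 to 0.167) and with library sizes left without TMM (0.0507), a loess offset (0.051) or only the libraries of both groups (0.112). The non-promoter region with the most reads (chr5:38598435-38598936, intron 2 of LIFR-AS1) had 16, 28.8 and 21.9 CPM in DMSO, 6.98, 8.07 and 7.96 in osi_DTP and 10.6, 12 and 6.96 in combo. Again all drug-exposed libraries were below DMSO, with log2 fold changes of −1.53 ± 0.52 in osi_DTP (edgeR adjusted p = 0.067; 0.00755 without combo replicate 3) and −1.17 ± 0.52 in combo (edgeR adjusted p = 0.127).

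A region upstream of the RefSeq start of LIFR had the other direction. At chr5:38640874-38641375, in exon 4 of a LIFR-AS1 transcript and named because it was called, CPM was 2.00, 0.826 and 1.01 in DMSO, 2.87, 3.48 and 3.42 in osi_DTP and 5.01, 4.07 and 5.22 in combo. Counts were low: 22, 8 and 10 in DMSO, 30, 25 and 34 in osi_DTP and 50, 35 and 27 in combo. The input, of lower total count, had 11, and the mean count of 26.8 was the lowest of the 77 regions. A peak was called there in 0 of 3 DMSO libraries, 2 of 3 osi_DTP libraries and 3 of 3 combo libraries. The groups did not overlap, and the rise passed in combo (log2 fold change 1.88 ± 0.58, edgeR adjusted p = 0.031; 0.011 without combo replicate 3, and lost without DMSO replicate 2, DMSO replicate 3 or combo replicate 1, at 0.0873 to 0.160). With library sizes left without TMM the edgeR adjusted p was 0.0877, and with only the libraries of both groups 0.0585. The LIFR promoter region with the most reads (chr5:38556084-38556585) had 5.53, 6.82 and 5.83 CPM in DMSO, 7.27, 19.8 and 2.62 in osi_DTP and 6.71, 5.24 and 26.9 in combo, so its groups overlapped. At the LIFR window shown, which holds a STAT motif match 165 bases before the start, the overlapping region chr5:38595033-38595534 had a mean of 5.93 ± 0.128 CPM (SD, n = 3) in DMSO, 6.78 ± 0.648 in osi_DTP and 11 ± 3.05 in combo, with no call (edgeR adjusted p = 0.868 and 0.241 against DMSO), except in combo when replicate 3 was left out (0.0489).

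OSMR, the receptor chain for oncostatin M, had the promoter region with the most reads of all 9 genes and gained H3K27ac at 1 region of its first intron in combo. At the promoter (chr5:38846041-38846542), CPM was 52.1, 59.9 and 47.4 in DMSO, 59.4, 107 and 42.2 in osi_DTP and 63.0, 71.3 and 141 in combo. Combo libraries were all above DMSO, but the log2 fold change of 0.79 ± 0.50 did not pass (edgeR adjusted p = 0.301), nor did 0.39 ± 0.50 in osi_DTP (0.698). Without combo replicate 3 the log2 fold change in combo was 0.33. An intron 1 region 8.83 kb downstream of the promoter region (chr5:38854867-38855368) had 8.62, 9.19 and 9.05 CPM in DMSO, 18.8, 22.4 and 26.2 in osi_DTP and 25.0, 33.3 and 41.6 in combo. Every drug-exposed library was above every DMSO library. The rise passed in combo (log2 fold change 1.89 ± 0.50, edgeR adjusted p = 0.016; 0.00437 without combo replicate 3, and 0.0726 to 0.0932 without 1 of the DMSO libraries) and not in osi_DTP with all libraries (1.33 ± 0.50, edgeR adjusted p = 0.092; 0.017 without combo replicate 3).

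The OSMR region with the most reads outside the promoter (chr5:38853672-38854173, also intron 1) had means of 14.9 ± 4.44 CPM (SD, n = 3) in DMSO, 21.8 ± 5.50 in osi_DTP and 32.5 ± 19.6 in combo. Combo replicates 1 and 2 had 34.8 and 50.8 CPM and replicate 3 had 11.8, and the region did not pass in combo with all libraries (log2 fold change 1.12 ± 0.57, edgeR adjusted p = 0.185) but did without replicate 3 (1.51, edgeR adjusted p = 0.012). Over all 15 OSMR regions the median log2 fold change was 0.39 in osi_DTP and 0.12 in combo, with values on both sides of 0 in each, and the combo median was 0.33 without replicate 3.

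**Figure D2:**
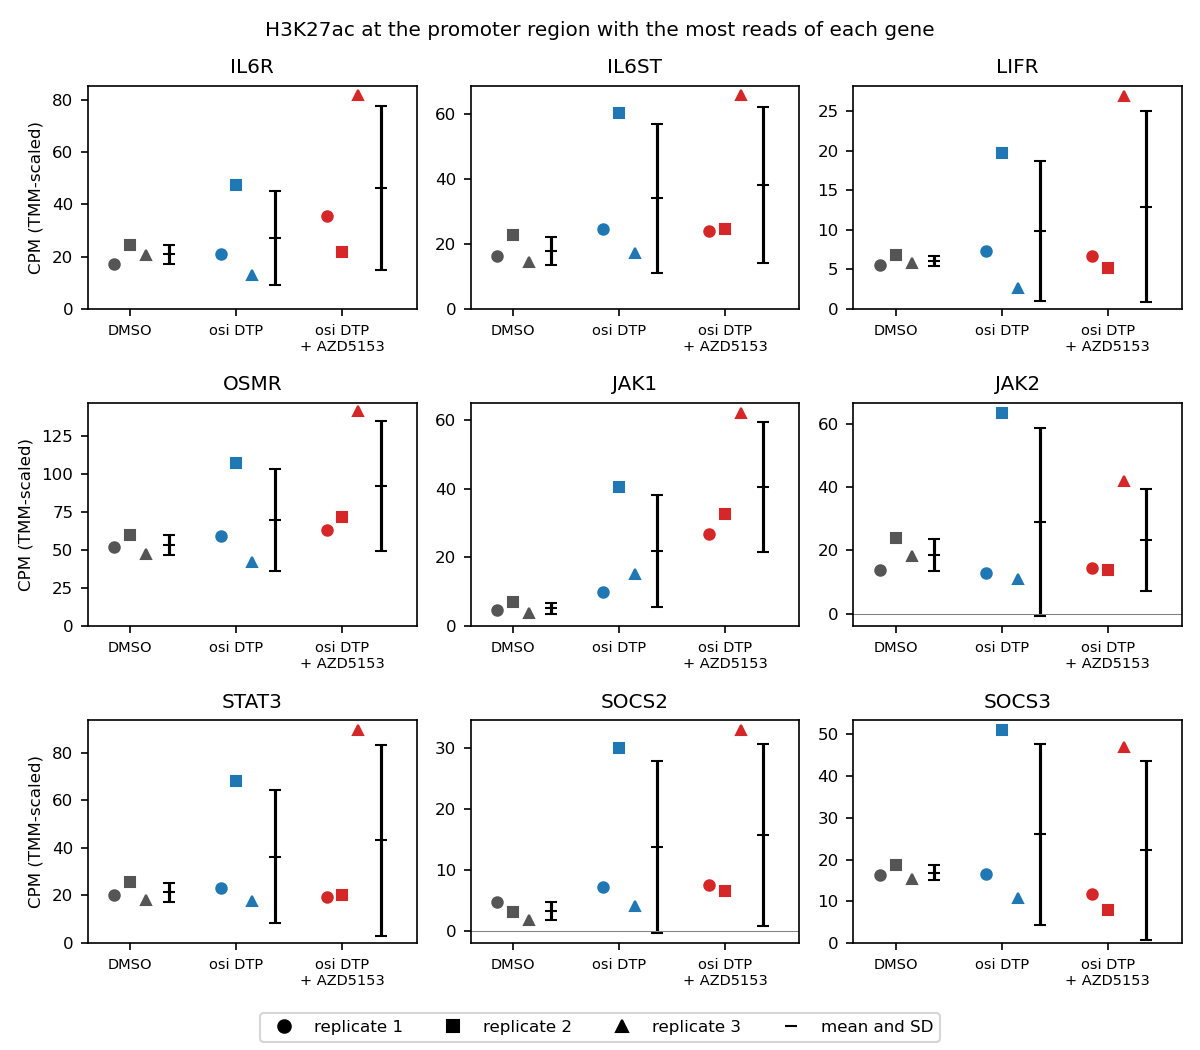
H3K27ac in CPM (y axis, scaled with TMM, a different range in each panel) at the promoter region with the most reads of each of the 9 genes, by group (x axis); symbols are single libraries and black bars are the mean ± SD of 3 libraries. In most panels osi_DTP replicate 2 and combo replicate 3 lie far above the other libraries of their groups, and JAK1 is the panel in which all osi_DTP and all combo libraries lie above all DMSO libraries.

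JAK1, the main kinase bound to IL6ST, had the highest log2 fold changes of the 77 regions in combo against DMSO, all 3 around the upstream one of its starts. The region at this start (chr1:65067760-65068261, which overlaps the first window shown) had 50, 67 and 39 counts in DMSO, 105, 290 and 150 in osi_DTP and 267, 281 and 321 in combo. The input, of lower total count, had 19. In CPM these were 4.53, 6.92 and 3.92 in DMSO, 10.0, 40.4 and 15.1 in osi_DTP and 26.8, 32.7 and 62.0 in combo. All drug-exposed libraries were above all DMSO libraries, while osi_DTP and combo overlapped each other. H3K27ac rose in osi_DTP (log2 fold change 2.09 ± 0.62, edgeR adjusted p = 0.038) and in combo (2.98 ± 0.64, edgeR adjusted p = 0.005).

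The combo call at this JAK1 start held when each library was left out in turn (edgeR adjusted p from 0.000921 to 0.0442). The osi_DTP call held without combo replicate 3 (edgeR adjusted p = 0.00319) and was lost without any 1 of the DMSO libraries, osi_DTP replicate 2 or osi_DTP replicate 3 (0.065 to 0.187). The log2 fold change in osi_DTP was 1.35 without osi_DTP replicate 2, and 1.31 without both libraries with a high promoter share (edgeR adjusted p = 0.00765). It was also lost with a block for the replicate number (log2 fold change 1.92, edgeR adjusted p = 0.059).

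Both regions just inside the gene from this start, named because they were called, also passed in combo. At chr1:65066771-65067272, CPM was 2.18, 1.96 and 2.92 in DMSO, 5.74, 15.9 and 4.43 in osi_DTP and 9.32, 11.2 and 42.9 in combo. At chr1:65066073-65066574, in the class at 1 to 3 kb, it was 0.907, 1.24 and 0.503 in DMSO, 2.01, 4.73 and 3.02 in osi_DTP and 5.61, 3.72 and 13.1 in combo. At both, all DMSO libraries lay below all other libraries. The rises over DMSO in combo were 3.15 ± 0.72 (edgeR adjusted p = 0.008; 0.058 without DMSO replicate 2) and 3.05 ± 0.67 (0.006; 0.051 without DMSO replicate 3), and those in osi_DTP, 1.87 ± 0.69 and 1.86 ± 0.66, did not pass (edgeR adjusted p = 0.092 and 0.078). Without combo replicate 3 the combo log2 fold changes were 2.11 and 2.38 and still passed (edgeR adjusted p = 0.00341 and 0.0025), and those of osi_DTP passed too (0.00638 and 0.012).

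The inner JAK1 start, 101 kb away in the gene and shown as the other JAK1 window, had no call at either of its promoter regions. The one with more reads (chr1:64966114-64966615) had 5.80, 7.44 and 3.02 CPM in DMSO, 6.21, 29.9 and 3.83 in osi_DTP and 5.41, 7.21 and 25.3 in combo. Osi_DTP replicate 2 and combo replicate 3 stood out there, and the other drug-exposed libraries lay within the DMSO range. The log2 fold changes of 1.29 ± 0.77 and 1.21 ± 0.77 did not pass (edgeR adjusted p = 0.313 and 0.299). At the other (chr1:64965305-64965806), CPM was 3.36, 3.72 and 3.12 in DMSO, 4.68, 6.4 and 6.44 in osi_DTP and 6.61, 5.00 and 16.8 in combo. All drug-exposed libraries were above all DMSO libraries there, with log2 fold changes of 0.78 ± 0.57 in osi_DTP (edgeR adjusted p = 0.429) and 1.46 ± 0.57 in combo (0.0838), and 0.77 in combo without replicate 3 (0.191). Whether the starts of JAK1 differed from each other was not tested. The JAK1 region outside the promoter class with the most reads (chr1:64898263-64898764, intron 1) had 9.98, 16.6 and 8.85 CPM in DMSO, 13, 20.5 and 18.7 in osi_DTP and 20.1, 32.7 and 3.48 in combo, with no call.

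JAK2, the other kinase of the list, had a single region, at its 5′ end (chr9:4984732-4985233). CPM was 13.7, 23.9 and 18.3 in DMSO, 12.9, 63.3 and 10.9 in osi_DTP and 14.3, 13.7 and 41.7 in combo. Apart from osi_DTP replicate 2 and combo replicate 3, the drug-exposed libraries were within or below the DMSO range. The log2 fold change against DMSO was 0.64 ± 0.67 in osi_DTP (edgeR adjusted p = 0.616) and −0.59 without osi_DTP replicate 2, and it was 0.32 ± 0.67 in combo (0.795) and −0.41 without combo replicate 3.

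**Figure D3:**
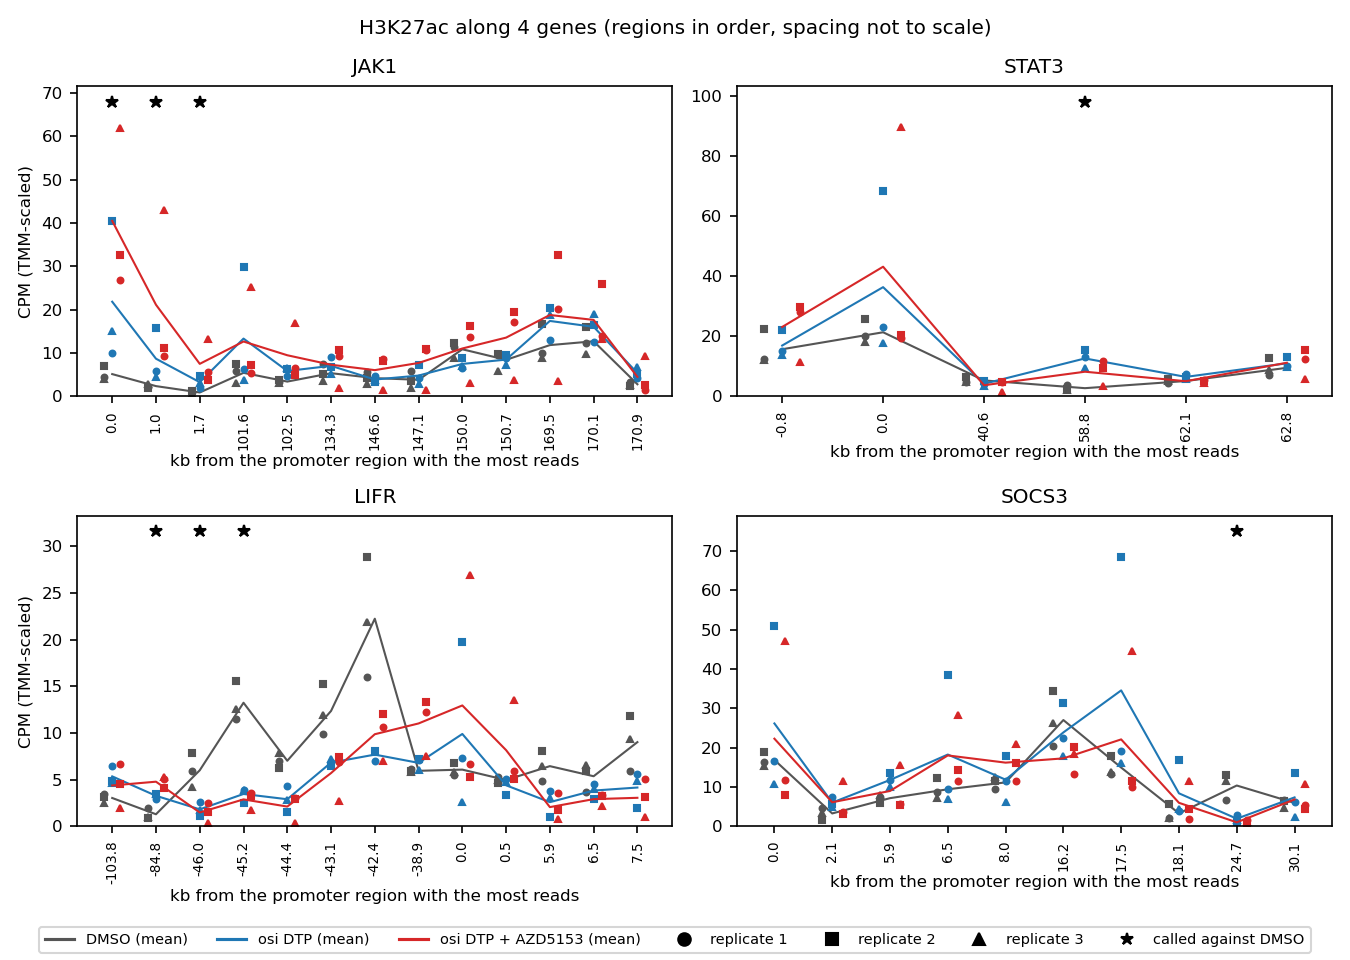
H3K27ac in CPM (y axis, scaled with TMM) at every region of JAK1, STAT3, LIFR and SOCS3 in order along the gene (x axis, distance in kb from the promoter region with the most reads, positive downstream, evenly spaced and not to scale); lines are group means, symbols single libraries and stars regions called in osi_DTP or combo against DMSO. The JAK1 lines lie far apart at 0 kb, the DMSO line of LIFR stands above the others at −42.4 to −46.0 kb, and the SOCS3 region at 24.7 kb is near 0 in the drug-exposed libraries.

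STAT3, the transcription factor that the kinases phosphorylate, gained H3K27ac in osi_DTP at a region inside the gene, while the region at its start did not pass. The region at the start (chr17:42388002-42388503) had 20.2, 25.7 and 18 CPM in DMSO, 23.0, 68.3 and 17.6 in osi_DTP and 19.5, 20.4 and 89.5 in combo. The groups overlapped, and the log2 fold changes of 0.77 ± 0.65 in osi_DTP (edgeR adjusted p = 0.513) and 1.01 ± 0.65 in combo (0.310) became −0.01 without osi_DTP replicate 2 and −0.10 without combo replicate 3. The changed region (chr17:42329194-42329695) is in the class at 1 to 3 kb from a TSS because a short transcript starts near it, but it lies 59.0 kb into the gene from its RefSeq start. It had 40, 24 and 20 counts in DMSO, 136, 111 and 93 in osi_DTP and 117, 82 and 17 in combo, and 8 in the input of lower total count. In CPM these were 3.63, 2.48 and 2.01 in DMSO, 13, 15.4 and 9.37 in osi_DTP and 11.7, 9.54 and 3.29 in combo.

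All osi_DTP libraries, and combo replicates 1 and 2, were above all DMSO libraries at this STAT3 region, while combo replicate 3 lay within the DMSO range. A peak was called there in 1 of 3 DMSO libraries and in 3 of 3 libraries of each drug group. H3K27ac rose in osi_DTP (log2 fold change 2.21 ± 0.59, edgeR adjusted p = 0.025; 0.000647 without combo replicate 3, and 0.0556 to 0.153 without any 1 of the DMSO or osi_DTP libraries). In combo the log2 fold change was 1.60 ± 0.59 (edgeR adjusted p = 0.066), and it passed without combo replicate 3 (1.96, edgeR adjusted p = 0.00238). The other 4 STAT3 regions, all in the promoter class, had log2 fold changes from −0.35 to 0.35 in osi_DTP, and none passed in either comparison.

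Of the inhibitors, SOCS3, the feedback inhibitor that STAT3 induces, lost H3K27ac at a distal region in both drug groups, while its promoter region did not pass. The promoter region (chr17:78359540-78360041, which overlaps the SOCS3 window shown) had 16.3, 18.8 and 15.4 CPM in DMSO, 16.6, 50.9 and 10.8 in osi_DTP and 11.7, 8.03 and 47.0 in combo. The groups overlapped, with log2 fold changes of 0.63 ± 0.68 in osi_DTP (edgeR adjusted p = 0.628) and 0.39 ± 0.68 in combo (0.743); without osi_DTP replicate 2 the first was −0.24, and without combo replicate 3 the other was −0.77. A region 24.7 kb downstream of the promoter region (chr17:78334807-78335308), in an intron of a transcript to which the annotation gives no gene, had 72, 125 and 115 counts in DMSO, 31, 8 and 16 in osi_DTP and 15, 4 and 5 in combo. The input, of lower total count, had 14.

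In CPM the SOCS3 distal region had 6.53, 12.9 and 11.6 in DMSO, 2.96, 1.11 and 1.61 in osi_DTP and 1.5, 0.465 and 0.966 in combo. All drug-exposed libraries were below all DMSO libraries, and a peak was called in 3 of 3 DMSO libraries and in 0 of the other 6. H3K27ac fell by 2.42 ± 0.61 on the log2 scale in osi_DTP (edgeR adjusted p = 0.019) and by 3.37 ± 0.65 in combo (edgeR adjusted p = 0.003). The combo call held when each library was left out in turn (edgeR adjusted p from 0.000304 to 0.0258), and the osi_DTP call was lost without DMSO replicate 2, DMSO replicate 3, osi_DTP replicate 2 or osi_DTP replicate 3 (0.0862 to 0.113). The region between them with the most reads (chr17:78343325-78343826) had 20.4, 34.3 and 26.2 CPM in DMSO, 22.4, 31.3 and 17.8 in osi_DTP and 13.3, 20.0 and 18.4 in combo, with all combo libraries below DMSO but no call (log2 fold change −0.65 ± 0.50, edgeR adjusted p = 0.407).

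SOCS2, the other inhibitor, had higher mean H3K27ac in both drug groups at its promoter, with wide spread. At chr12:93570292-93570793, CPM was 4.72, 2.99 and 1.81 in DMSO, 7.17, 29.9 and 4.13 in osi_DTP and 7.51, 6.52 and 32.9 in combo. Combo lay above DMSO and osi_DTP overlapped it. The log2 fold changes of 2.10 ± 0.79 in osi_DTP (edgeR adjusted p = 0.097) and 2.28 ± 0.80 in combo (0.055) did not pass, and they were 0.88 without osi_DTP replicate 2 and 1.13 without combo replicate 3. Of the 4 other SOCS2 regions, which the annotation calls intergenic but which lie within the bounds of SOCS2 in RefSeq, 3 had all osi_DTP libraries above DMSO, where 39.1% of all regions tested lay apart in either direction, and none was called. One of them, chr12:93622173-93622674, passed in osi_DTP with a block for the replicate number (log2 fold change 1.98, edgeR adjusted p = 0.046; 1.75 and 0.102 without the block) and is named for that reason. The SOCS2 region outside the promoter with the most reads (chr12:93624655-93625156) had means of 10.9 ± 3.42 CPM (SD, n = 3) in DMSO, 9.33 ± 1.57 in osi_DTP and 7.62 ± 5.88 in combo, and its groups overlapped.

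**Figure D4:**
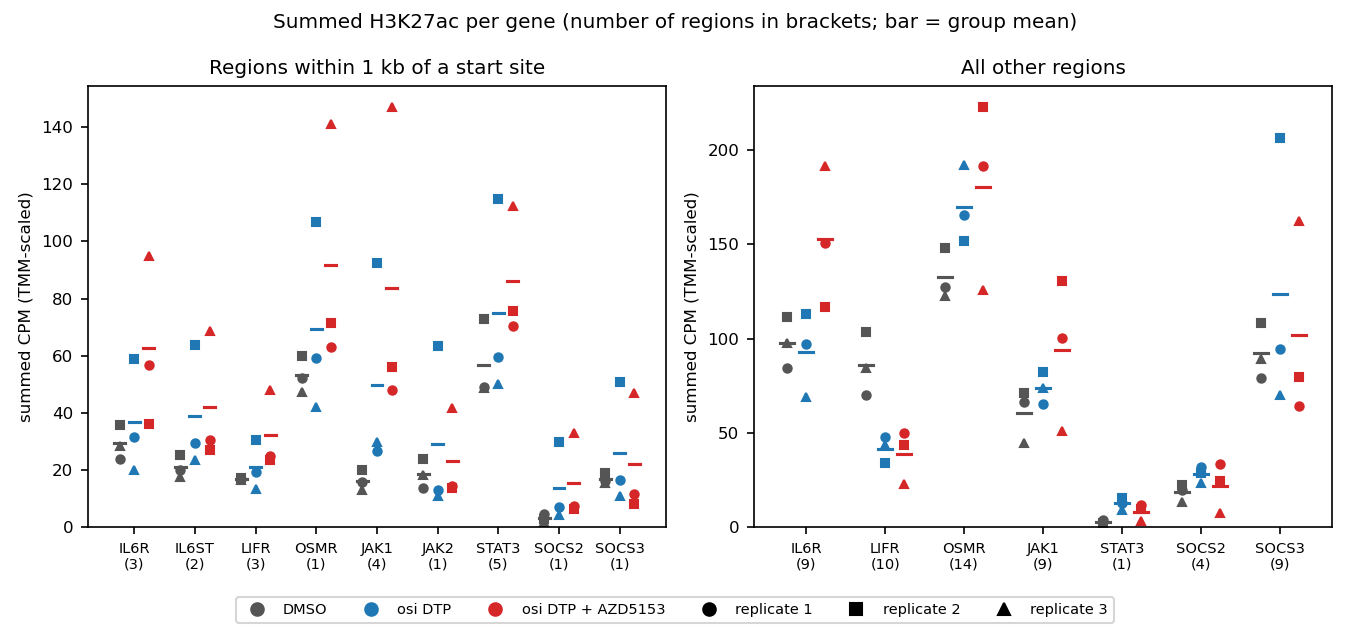
H3K27ac summed over the regions of each gene in CPM (y axis, scaled with TMM), by gene and group (x axis), for promoter regions on the left and all other regions on the right; symbols are single libraries, bars are group means and the number of regions is in brackets. Among promoter sums only those of JAK1 lie wholly above DMSO in both drug groups, and among the other sums only those of LIFR lie wholly below it.

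The combo and osi_DTP groups were then compared directly, after 24 days of osimertinib in osi_DTP and 21 in combo. As the labels do not say whether osimertinib was kept on with AZD5153, AZD5153 and a possible withdrawal of osimertinib for 3 days cannot be told apart. None of the 77 regions passed the edgeR test (0 of 77), nor did any region genome-wide (0%). At 2 of the 77, both in IL6R intron 1, the unadjusted p was under 0.05, against 7013 of all 157919 regions tested. DESeq2 called 0 of the 77, and 18 higher and 68 lower over all regions. Without combo replicate 3 again 0 of the 77 passed, while 0.122% of all regions did. The groups did not overlap at 8 regions (10.4%; 7 with combo above and 1 below), against 8.23% of all regions tested. Of the 7, 5 were in IL6R and 2 in the LIFR locus, and the 1 below was in STAT3. At IL6R the median log2 fold change over 12 regions was 0.64, at JAK1 0.66 over 13, and at SOCS3 −0.32 over 10; over all 77 it was 0.03, against 0.07 over all annotated regions. These medians, without combo replicate 3, were 0.49 at IL6R, 0.50 at JAK1, −0.90 at SOCS3 and 0.08 over all 77. Over all regions tested the median was 0.06 with all libraries and −0.17 without combo replicate 3. At the upstream JAK1 start the log2 fold change was 0.89 ± 0.59 and at the STAT3 region −0.61 ± 0.57, and neither passed (edgeR adjusted p = 1 at both). They were 0.45 and −0.25 without combo replicate 3. In a bulk assay, fewer cells with the mark and less of the mark per cell cannot be told apart, here or in the comparisons with DMSO.

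The other genes of the pathway were taken from a list of 53 by role: ligands, further receptors, JAK3 and TYK2, the other STATs, inhibitors, and known STAT3 targets. Of these, 46 had at least 1 annotated region and together they had 229. In osi_DTP against DMSO, 16 regions were higher and 2 lower (7.86%), against 10.7% of all regions tested and 14.2% of annotated regions. All of the higher ones were among the 112 regions of target genes, where the share called was 14.3%, near the 14.2% of annotated regions. NNMT, a methyltransferase of nicotinamide with 26 regions, held 11 of these 16, FOS 2, and HIF1A, ICAM1 and IRF1 1 each. Of the 26 regions of ligands, 53 of inhibitors, 5 of kinases and 3 of receptors, none passed in the edgeR test, with 4, 6, 0 and 0 at an unadjusted p under 0.05. Over all regions tested, 40906 of 157919 had such a p.

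The lowest p among the targets belonged to regions that the annotation gave to FOS, the AP-1 subunit. At chr14:75266133-75266634, upstream of FOS, counts were 6, 2 and 5 in DMSO, 49, 39 and 54 in osi_DTP and 40, 46 and 20 in combo, a log2 fold change of 3.58 ± 0.63 in osi_DTP (edgeR adjusted p = 0.004). At chr14:75267138-75267639 they were 5, 7 and 6 in DMSO, 66, 61 and 79 in osi_DTP and 106, 125 and 22 in combo, a log2 fold change of 3.65 ± 0.64 (edgeR adjusted p = 0.004). All DMSO libraries were below all others at both.

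Both lower regions were at other STATs. In an intron assigned to STAT6, which serves IL4 signalling (chr12:57118976-57119477), counts were 235, 418 and 347 in DMSO, 69, 39 and 49 in osi_DTP and 19, 14 and 6 in combo, and H3K27ac fell by 2.55 ± 0.55 on the log2 scale in osi_DTP (edgeR adjusted p = 0.009). In combo the log2 fold change was −4.37 ± 0.60 (edgeR adjusted p = 0.001). Near STAT4, which serves IL12 signalling (chr2:191170011-191170512), counts were 160, 241 and 172 in DMSO, 25, 32 and 81 in osi_DTP and 15, 30 and 7 in combo, with log2 fold changes of −1.91 ± 0.60 (edgeR adjusted p = 0.0495) and −3.14 ± 0.64 (0.004). The 3 groups did not overlap at the STAT6 region, in the order DMSO, osi_DTP, combo.

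In combo against DMSO, 32 of the 229 regions were higher and 11 lower (18.8%), near the 18.1% of all regions tested and below the 21.8% of annotated regions. Targets held 28 of the higher regions, 20 of them at NNMT and 4 at PIM1, a kinase induced by STAT3, ligands held 3, of which 2 were given to CNTF and 1 to LIF, and the kinase JAK3 held 1. The lower ones were 4 at STAT4 and STAT6, 4 at the targets BCL3, MCL1 and SERPINA3, 2 at the inhibitor PTPN1 and 1 at the ligand IL11. Of the 112 target regions, 28.6% were called in either direction, and NNMT had 26 of the 112. In combo against osi_DTP 0 of the 229 passed in the edgeR test, 4 had an unadjusted p under 0.05 and DESeq2 called 1. Without combo replicate 3 the counts were 37 higher and 12 lower in osi_DTP, and 43 higher and 23 lower in combo, while 26.8% and 35.7% of all regions passed.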

How the data were processed

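H3K27ac ChIP-seq of H1975 cells gave 9 libraries in 3 groups and 1 pooled input. No methods text on the ChIP-seq analysis was used. The submitters' processing notes name build hg38, BWA 0.7.17, MACS2 2.2.6, featureCounts 2.0.0 and ChIPseeker 1.29.1, with no settings. The authors deposited raw read counts of 169637 regions, each 502 bp wide, for all 10 libraries, and an annotated table of 67387 of these regions with equal counts. The deposited peak lists, 1 for each H3K27ac library, hold fold enrichment (a ratio) and p and q on the −log10 scale, and only whether a region overlapped a peak was used.

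Groups came from the sample titles. Counts were tested with edgeR 4.0.16 (R 4.3.3): filterByExpr at its defaults (minimum count 10), TMM, and the quasi-likelihood test with robust estimation in a single fit of 9 libraries with a mean per group; the input was left out. Benjamini-Hochberg adjustment ran over all 157919 tested regions at 0.05, and the SE of a log2 fold change was its size divided by the square root of F. The script was tested on simulated counts. Total counts of 6263443 to 10463351 per library put the 77 regions at mean counts of 26.8 to 600.6 per library, with 4 to 28 in the input. No H3K27ac count exceeded 1152, what 1 read per position and strand allows with reads of 75 nt. Coordinates are those of the deposited tables (hg38), and RefSeq bounds and promoter windows are of GRCh38.p14.

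Per gene, the regions named were the promoter region and the other region with the most reads and those with the lowest p in each comparison with DMSO; for the pathway list, up to 2 called regions per role and direction. Other regions were named after their values were seen, because they were called, changed with a setting or lie at a window shown (the inner JAK1 start and chr5:38595033-38595534); the LIFR window was likewise added for its STAT motif. The genes, lists and tests were chosen with earlier results of these data known. Tried besides were a replicate block, voom quality weights (limma 3.58.1), DESeq2 1.42.0, no TMM, loess offsets (span 0.3), no low-count filter, annotated regions alone, only the libraries compared, counts corrected for saturation, a threshold of 0.01 and each library left out in turn; leaving out both libraries with a high promoter share was added after the data were seen. After group means were removed, osi_DTP and DMSO libraries with the same number in their titles correlated at 0.334, 0.355 and 0.324, all over the 0.1 taken to show pairing. For combo the lowest such correlation was −0.24 with osi_DTP and −0.02 with DMSO, so no pairing was taken. What the number stands for is not in the labels.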

Additional observations from a re-analysis of the deposited data

How the results depend on the processing

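Counts of called regions follow as members (the 9 genes) and then pathway (the other genes). In osi_DTP against DMSO, 4 and 18 became 14 and 49 with only the libraries of both groups, 17 and 65 with quality weights, 7 and 34 with DESeq2, 0 and 4 at an adjusted p under 0.01, and 12 and 51 without both libraries with a high promoter share (chosen after seeing the data). With 1 library left out they ran from 0 to 15 and from 2 to 49. Calls over all regions moved with the setting too, from 8814 higher and 8107 lower to 19930 and 18728 with only both groups. They were 26618 and 23713 with quality weights, 12497 and 15406 with DESeq2, and 2036 and 1737 at an adjusted p under 0.01. Without both libraries they were 24167 and 19390. In combo against DMSO, 10 and 43 became 34 and 95 with quality weights, 4 and 22 at an adjusted p under 0.01, and 28 and 95 without both libraries, and ran from 3 to 18 and from 15 to 66 with 1 library left out. Over all regions, 14286 higher and 14232 lower became 37608 and 39284 with quality weights and 4834 and 4964 at an adjusted p under 0.01. Without both libraries they were 36893 and 32049. In combo against osi_DTP, 0 and 0 became 1 and 6 with quality weights, 1 and 5 without both libraries, and 0 and 1 with DESeq2, and were 0 with any 1 library left out. The member called there was OSMR chr5:38865575-38866076, named for that reason. In the edgeR fit of all libraries its log2 fold change in combo against osi_DTP was −1.34 ± 0.67, without a call, and −1.98 without combo replicate 3. Over all regions, 0 became 2965 higher and 2824 lower with quality weights, 1828 and 1587 without both libraries, and 18 and 68 with DESeq2. With the replicate block the counts were 4, 0 and 10 for members and 22, 0 and 44 for the pathway, and no call of a member changed other than those given at JAK1 and SOCS2. Over all 157919 regions the block gave 8433 higher and 8008 lower in osi_DTP against DMSO. It gave 0 in combo against osi_DTP, and 12445 higher and 15202 lower in combo against DMSO. Settings not named stayed within 1.5 times. The cause was not tested, beyond the fewer libraries or the stricter threshold that a setting has by construction.

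Refits covered the log2 fold changes against DMSO of the 20 member regions named by rule. For the 4 pathway regions named, they covered osi_DTP against DMSO alone. Of all these refits, 754 kept direction and side of the threshold, 36 gained a call, 51 lost one and 39 changed sign, the last at member regions without a call. In osi_DTP the sign changed with quality weights and without both libraries at the promoter regions of IL6R (−0.074 and −0.28), JAK2 (−0.28 and −0.62), LIFR (−0.066 and −0.26) and SOCS3 (−0.0072 and −0.27), without both libraries at STAT3 (−0.041) and OSMR (−0.037), and with a loess offset at OSMR (−0.022). In combo it changed with quality weights and without both libraries at JAK2 (−0.25 and −0.33), SOCS3 (−0.55 and −0.70), SOCS2 chr12:93624655-93625156 (0.089 and 0.075) and IL6R chr1:154432791-154433292 (−0.12 and −0.10), there also without TMM (−0.053) and with a loess offset (−0.092), and without both libraries at STAT3 (−0.019). With 1 library left out, osi_DTP values ran from −0.25 to 0.79 at the IL6R promoter, −0.57 to 0.22 at chr1:154432791-154433292, −0.59 to 1.12 at JAK2, −0.24 to 1.24 at LIFR, −0.0095 to 0.73 at OSMR, −0.39 to 0.10 at chr12:93624655-93625156, −0.37 to 0.084 at SOCS3 chr17:78343325-78343826, −0.24 to 1.09 at the SOCS3 promoter and −0.011 to 1.19 at STAT3. Combo values ran from −0.18 to 0.35 at chr1:154432791-154433292, −0.41 to 0.56 at JAK2, −0.025 to 1.43 at LIFR, −0.77 to 0.77 at the SOCS3 promoter and −0.10 to 1.33 at STAT3.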
